A study of Mus musculus with 6 samples.

Results

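The genes described here are 10 that microglia, the resident macrophages of the brain, raise in the state called disease-associated microglia: Gpnmb, Spp1, Trem2, Tyrobp, Cst7, Apoe, Axl, Cd68, Cd9 and Cd63. They were taken by symbol from the deposited count table, which held all 10 among its 24421 gene symbols, by a rule that uses no measured value, though the list was drawn up with earlier results of these data known. Bulk RNA was sequenced from C57BL/6 mouse cortex in which a stroke had been made by MCAO, the surgical closure of the middle cerebral artery. Of the 6 samples, 3 had received GFP (green fluorescent protein) as the control and 3 NeuroD1, a transcription factor of developing neurons, and the comparison asks what NeuroD1 delivery does to gene expression after stroke. All 6 samples therefore come from cortex after MCAO, and no uninjured cortex was analysed here. Not given in the sources used here are the vector and its promoter, when tissue was taken after the stroke, and the animals' age and sex. Whether each sample is a separate animal is not stated either, so p-values describe only how far these samples spread, part of which may be technical.

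In this state microglia around damaged tissue, dying cells or myelin debris turn down their resting programme and turn up genes for lipid uptake, lysosomal breakdown and secretion. TREM2 is a surface receptor for lipids and apolipoproteins, and it signals through the adaptor protein that Tyrobp encodes. An early step raises Tyrobp and Apoe without TREM2, while full expression of later genes such as Cst7, Axl and Spp1 depends on it. None of the 10 genes belongs to microglia alone: blood-derived macrophages can express most of them, astrocytes make Apoe, and Cd9 and Cd63 are found in many cell types.

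Libraries held 7753101 to 9698795 counts with GFP and 10843273 to 13440244 with NeuroD1, so every NeuroD1 library was the deeper. Neurod1 itself was 6.39-fold higher in the libraries labelled NeuroD1 (33.8 ± 17.4 against 5.26 ± 1.31 CPM, SD, n = 3), with no overlap between the groups. By library it stood at 48.5, 14.6 and 38.4 CPM in NeuroD1 replicates 1, 2 and 3, so replicate 2 was the lowest of its group. CPM is the TMM-scaled count on a common library size, corrected for composition. Counts came from whole tissue, so more cells of a type and more RNA per cell cannot be told apart. Libraries of a group differed far beyond sampling noise (chi-square per gene 28.9 to 108), so none was counted as a repeat.

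Gpnmb and Spp1 stood several-fold higher with NeuroD1, Cd68 was higher mainly through a single library, and Axl was modestly but evenly higher. Trem2, its adaptor Tyrobp and the protease inhibitor gene Cst7 overlapped between the groups, with differences close to 0 or slightly negative. Fitted levels were higher for 9 of the 10, against 51.7% of tested genes. The median log2 fold change of the 10 genes was 0.49, against 0.024 over the 14852 genes tested. Without NeuroD1 replicate 2 the median of the 10 was 0.17 and 7 had higher fitted levels, and without NeuroD1 replicate 3 the median was 0.72. No member passed the threshold of 0.05 in edgeR's quasi-likelihood test (Benjamini-Hochberg adjustment), where 0 genes (0%) passed in the whole table. At an unadjusted p under 0.05, 4 members were higher (Gpnmb, Spp1, Cd68 and Axl) and 0 lower, where 12.5% of all tested genes were higher and 11.5% lower. Limma-voom also called 0 genes, and its unadjusted p was under 0.05 for 3 members, all higher, against 11.7% of tested genes higher. At an edgeR adjusted p under 0.2, 4 members were higher, where 11.9% of tested genes were. DESeq2 called Gpnmb and Spp1 among the 10, where it called 5.07% of its genes higher and 3.93% lower. The edgeR count of 4 became 1 without GFP replicate 1 (against 14.2% of all genes higher in that fit), GFP replicate 2 (6.53%) or NeuroD1 replicate 2 (12.2%). It became 2 on leaving out GFP replicate 3 (6.13%) or NeuroD1 replicate 1 (7.79%), and 6 on leaving out NeuroD1 replicate 3 (15.3%). DESeq2 called Gpnmb alone of the members when GFP replicate 2 (0.883% of genes called higher), NeuroD1 replicate 1 (1.24%) or NeuroD1 replicate 2 (3.44%) was left out, and 4 members when NeuroD1 replicate 3 was (8.61%). Every NeuroD1 library lay above every GFP library for 3 members (Gpnmb, Spp1 and Axl), against 14.2% of tested genes.

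**Figure D1:**
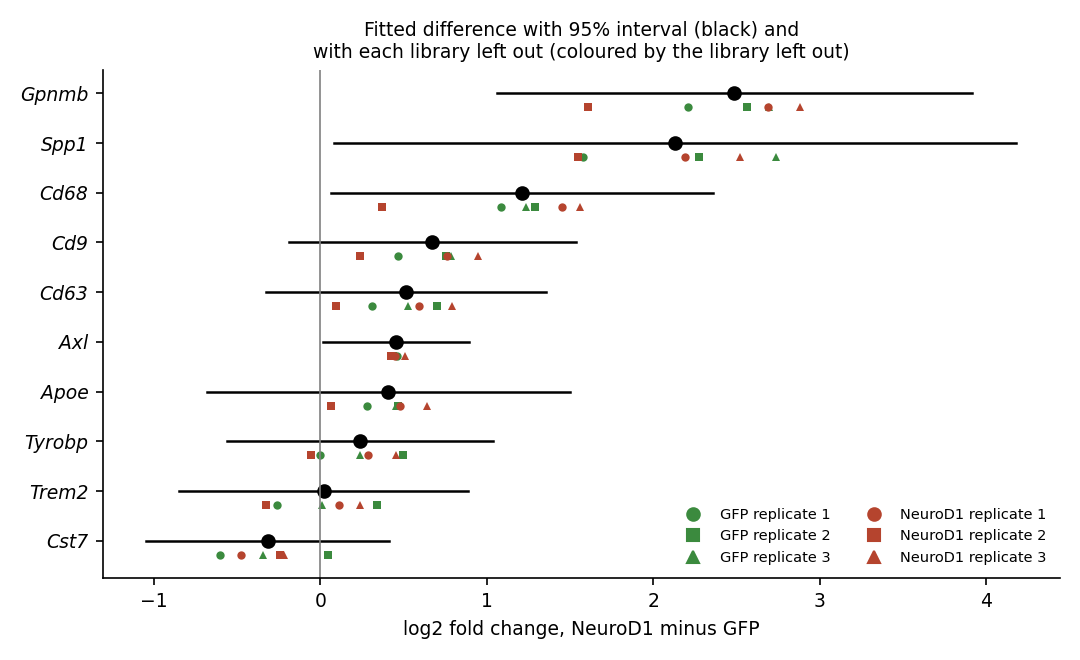
Log2 fold change of NeuroD1 over GFP for each gene (horizontal axis; black point and line, edgeR estimate and 95% interval, n = 3 a group), and below it the estimate with each library left out, coloured and shaped by the library left out. The interval lies above 0 for Gpnmb, Spp1, Cd68 and Axl, and the red square, the fit without NeuroD1 replicate 2, is the lowest estimate for 9 of the 10 genes, Cst7 being the exception.

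Together the 10 genes made up 1.61%, 2.46% and 2.94% of the GFP libraries and 4.27%, 7.08% and 2.58% of the NeuroD1 libraries, in replicate order. Most of this was Apoe and Spp1: Apoe was the first or second gene by count in each of the 6 libraries, while Axl ranked 708 to 1158 and Cst7 1796 to 4984. Spp1 ranged from rank 137 in GFP replicate 1 to rank 1 in NeuroD1 replicates 1 and 2. NeuroD1 replicate 3 took a smaller share than GFP replicate 3, so the groups overlapped in this total. Spp1 alone made up 0.0630% of the counts in GFP replicate 1 and 3.08% in NeuroD1 replicate 2.

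**Figure D2:**
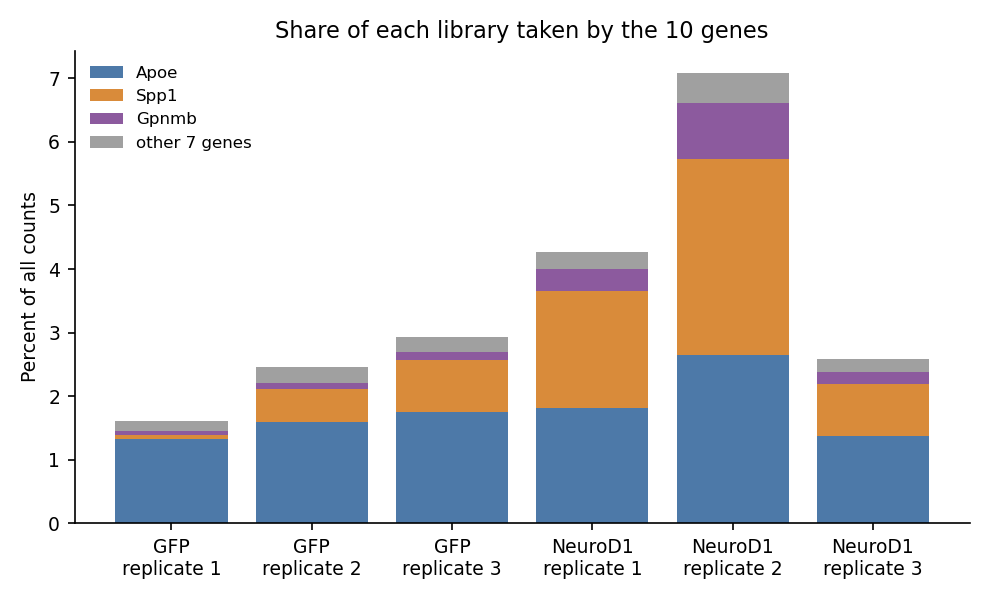
Percent of all counts (vertical axis) taken by Apoe, Spp1, Gpnmb and the other 7 genes in each library (stacked bars). The total runs from 1.61% in GFP replicate 1 to 7.08% in NeuroD1 replicate 2. Between these libraries Spp1 rises most, from 0.0630% to 3.08%, then Apoe, from 1.32% to 2.65%, and Gpnmb, from 0.058% to 0.885%.

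On a scale per kilobase of exon (RPKM), the order in the GFP group was led by Apoe at 7095 ± 882 and Spp1 at 2773 ± 2189 (SD, n = 3). The length used was the union of all annotated exons, which can exceed that of any single transcript. It was 4946 bases for Trem2, 3682 for Cd63 and 667 for Tyrobp, so the order of genes depends on this choice. Tyrobp followed at 658 ± 213, Cd68 at 369 ± 43.9, Cd9 at 204 ± 45.1 and Gpnmb at 138 ± 45.3. Cst7 (78.1 ± 33.2) and Trem2 (75.7 ± 29.3) lay close together, with Cd63 (62.0 ± 15.3) below both and Axl lowest at 31.3 ± 1.15. Within each GFP library Cd9 lay above Gpnmb, and Cd63 below Cst7 and Trem2. With NeuroD1 the order changed at the top, with Spp1 at 12169 ± 7779 RPKM and Apoe at 9414 ± 3705. In NeuroD1 replicate 3, however, Apoe was the higher of these. Gpnmb, at 772 ± 625 RPKM, then lay beside Tyrobp at 776 ± 270 and Cd68 at 853 ± 661, though Cd68 lay above Gpnmb in each NeuroD1 library. By its mean RPKM Gpnmb was the 242nd gene of 23334 with GFP and the 23rd with NeuroD1.

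Gpnmb, a transmembrane glycoprotein of lysosomes and phagosomes in lipid-laden macrophages (chromosome 6, 49036546 to 49070929, plus strand, protein coding, GRCm38), measured 566, 989 and 1134 CPM in GFP replicates 1, 2 and 3. In NeuroD1 replicates 1, 2 and 3 it measured 3561, 9630 and 1891 CPM. All 3 NeuroD1 libraries lay above the GFP range, and within the NeuroD1 group the highest library was 5.09 times the lowest. The fitted difference was 5.61-fold (log2 fold change 2.49, SE 0.62, 95% interval 1.06 to 3.91), with an adjusted p of 0.136 by edgeR's quasi-likelihood test and 0.000663 by DESeq2. Without NeuroD1 replicate 2 the fold was 3.05, and its unadjusted p stayed under 0.05 with each of the 6 libraries left out.

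Spp1, the gene of the secreted matrix protein osteopontin, which binds integrins and Cd44 (chromosome 5, 104435118 to 104441050, plus strand), had the widest spread of the 10. It measured 619, 5402 and 7690.04 CPM in GFP replicates 1, 2 and 3 and 18678, 33508 and 7980 CPM in NeuroD1 replicates 1, 2 and 3. The highest GFP library and the lowest NeuroD1 library were nearly level, while GFP replicate 1 lay far below the other GFP libraries, which were up to 12.4 times higher. The fitted difference was 4.39-fold (log2 fold change 2.13, SE 0.90, 95% interval 0.085 to 4.18; edgeR adjusted p = 0.196, DESeq2 adjusted p = 0.0388). It was 2.99-fold without GFP replicate 1, 2.93-fold without NeuroD1 replicate 2 and 6.67-fold without GFP replicate 3. By DESeq2 its adjusted p was 0.122 when GFP replicate 2 was left out, 0.103 for NeuroD1 replicate 1 and 0.291 for NeuroD1 replicate 2, which ended the call.

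Cd68, a lysosomal membrane protein of phagocytes (chromosome 11, 69664213 to 69666153, minus strand), measured 403, 511 and 476 CPM with GFP and 696, 2025 and 497 CPM with NeuroD1 (replicates 1, 2 and 3). NeuroD1 replicate 3 lay inside the GFP range, and NeuroD1 replicate 2 was 4.08 times as high as that library. The 2.32-fold difference (log2 fold change 1.21, SE 0.50; edgeR adjusted p = 0.193) was 1.29-fold without NeuroD1 replicate 2.

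**Figure D3:**
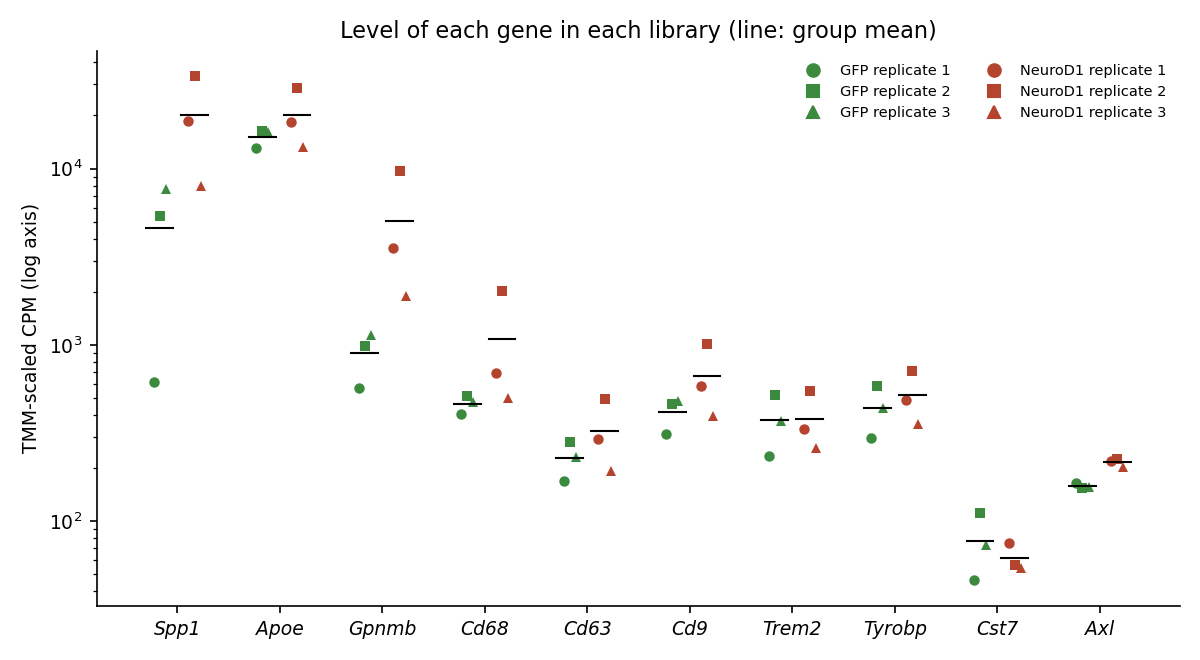
TMM-scaled CPM of each gene (log axis) in the 3 GFP libraries (green) and the 3 NeuroD1 libraries (red), with symbols by replicate number and a line at each group mean. The groups separate for Spp1, Gpnmb and Axl, and NeuroD1 replicate 2 (red square) is the highest library for every gene shown except Cst7.

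Trem2 (chromosome 17, 48346401 to 48354147, plus strand) measured 233, 522 and 368 CPM with GFP and 334, 546 and 259 CPM with NeuroD1. The groups covered nearly the same range. The fitted log2 fold change was 0.020 (SE 0.38, 95% interval -0.85 to 0.89; edgeR adjusted p = 0.979), so differences of up to 1.85-fold upwards lie within the interval, and the sign turned negative with upper quartile scaling. Tyrobp, which encodes the adaptor that carries the TREM2 signal into the cell (chromosome 7, 30413760 to 30417585, plus strand), measured 298, 582 and 437 CPM with GFP and 485, 712 and 356 CPM with NeuroD1. Its 1.18-fold difference (log2 fold change 0.24, SE 0.35; edgeR adjusted p = 0.692) was smaller than the spread within either group.

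Cst7, the gene of the lysosomal protease inhibitor cystatin F (chromosome 2, 150570415 to 150578944, plus strand), was the only member with a lower fitted level. It measured 46.1, 111 and 73.7 CPM with GFP and 75.3, 56.1 and 53.9 CPM with NeuroD1. The NeuroD1 libraries all fell inside the GFP range (log2 fold change -0.32, SE 0.32; edgeR adjusted p = 0.549), and the sign turned positive without GFP replicate 2. NeuroD1 replicate 2, the highest library for the other 9 members, was not high for Cst7.

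Apoe, the gene of the main lipid carrier protein of the brain and a ligand of TREM2 (chromosome 7, 19696109 to 19699188, minus strand), measured 13001, 16412 and 16095 CPM with GFP and 18301, 28800.1 and 13278 CPM with NeuroD1. NeuroD1 replicate 3 lay within the GFP range and the other NeuroD1 libraries above it (1.33-fold, log2 fold change 0.41, SE 0.48; edgeR adjusted p = 0.608). Without NeuroD1 replicate 2 the log2 fold change was 0.064.

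Axl, a receptor tyrosine kinase that binds dying cells through the bridging protein GAS6 (chromosome 7, 25757273 to 25788705, minus strand), had the tightest groups. It measured 164, 153 and 155 CPM with GFP and 220.4, 226 and 202 CPM with NeuroD1, a coefficient of variation of 3.67% and 5.99%. The difference was 1.37-fold (log2 fold change 0.46, SE 0.19, 95% interval 0.016 to 0.90) with an adjusted p of 0.197 by edgeR and 0.0609 by DESeq2. Leaving out any library gave between 1.34-fold and 1.42-fold.

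The tetraspanins Cd9, found at the cell surface, and Cd63, found in late endosomes and exosomes, followed each other. Cd9 (chromosome 6, 125460266 to 125494791, minus strand) measured 310.5, 461 and 478 CPM with GFP and 582, 1014 and 394 CPM with NeuroD1, and overlapped between the groups (1.59-fold; edgeR adjusted p = 0.300). Cd63 (chromosome 10, 128900989 to 128912822, plus strand) measured 170, 282 and 232 CPM with GFP and 293, 493 and 192 CPM with NeuroD1 (1.43-fold; edgeR adjusted p = 0.399). In both, NeuroD1 replicate 3 lay below 2 of the GFP libraries, and without NeuroD1 replicate 2 the folds were 1.18 and 1.07. Reads of Cd9 and of an annotated transcript on the opposite strand, which share 218 exon bases, cannot be told apart without a stated strand setting.

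The windows at the start of Gpnmb and Cd68, higher with NeuroD1, and of Trem2, level between the groups, are shown because they hold the motifs searched for in different arrangements. Each runs 5′ to 3′ on the gene's strand, from 250 bases before to 30 bases after the RefSeq start (GRCm38.p6), with matches in capitals. The positions are chr6:49036268-49036547 on the plus strand for Gpnmb, chr11:69666141-69666420 on the minus strand for Cd68 and chr17:48346151-48346430 on the plus strand for Trem2.
Gpnmb: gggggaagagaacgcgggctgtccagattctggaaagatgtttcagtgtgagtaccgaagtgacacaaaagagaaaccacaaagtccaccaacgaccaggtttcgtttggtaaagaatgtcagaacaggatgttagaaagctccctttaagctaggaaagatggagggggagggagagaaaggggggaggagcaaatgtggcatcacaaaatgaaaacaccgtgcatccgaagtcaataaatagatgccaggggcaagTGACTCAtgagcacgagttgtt
Cd68: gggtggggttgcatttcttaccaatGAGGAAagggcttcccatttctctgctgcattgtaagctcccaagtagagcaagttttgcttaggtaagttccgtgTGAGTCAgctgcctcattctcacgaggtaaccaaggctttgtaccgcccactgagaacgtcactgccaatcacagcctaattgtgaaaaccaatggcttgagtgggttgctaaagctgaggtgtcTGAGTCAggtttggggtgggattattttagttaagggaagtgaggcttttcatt
Trem2: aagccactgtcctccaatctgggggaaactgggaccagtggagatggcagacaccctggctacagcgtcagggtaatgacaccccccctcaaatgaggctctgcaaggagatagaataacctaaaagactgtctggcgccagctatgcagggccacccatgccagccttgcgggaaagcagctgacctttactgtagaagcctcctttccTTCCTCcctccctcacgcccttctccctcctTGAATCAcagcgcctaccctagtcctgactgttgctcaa

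The search covered TGANTCA, the site of AP-1 factors, GAGGAA, a core of sites for the macrophage factor PU.1, and CACGTG and TCATGTG, boxes bound by the MiT/TFE factors that control lysosomal genes, all on both strands. Windows existed for 9 members, all but Tyrobp, and the shares given here are over 32851 windows of the same length. An AP-1 match occurred in 4 members (Gpnmb, Cd68, Trem2 and Cst7), against 7.46% of all windows. In Gpnmb it was TGACTCA at position 9 from the RefSeq start, and in Cd68 TGAGTCA at both -149 and -24. The GENCODE start given above for Gpnmb, 49036546, lies further downstream, after that match. Trem2 and Cst7 held the variants TGAATCA at -9 and TGATTCA at -6. The PU.1 core occurred in 6 members (Apoe, Axl, Cd63, Cd68, Spp1 and Trem2), against 26.0% of windows. Apoe had 3 windows and Spp1 2, and a match in any of them counted, whereas that share is per window. Both genes had a PU.1 match in their first window. CACGTG (6.79% of windows) and TCATGTG (3.60%) were in 0 of the 9 members' windows. Members with an AP-1 match included both the gene with the largest difference and the gene with a lower fitted level.

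Within a library, the members were set against the mean log2 CPM of 12 genes of resting microglia (among them P2ry12, Tmem119, Cx3cr1 and Sall1), as a description without a test. These 12 genes were detected in all libraries, with summed levels of 3509 to 4107 CPM with GFP and 3990.3 to 6140.0 CPM with NeuroD1, and a median log2 fold change of 0.21. At an unadjusted edgeR p under 0.05, 1 of the 12 was higher (Fcrls, named after its value was seen) and 1 lower (Siglech, a sialic acid-binding receptor of microglia, 50.6 ± 2.19 against 25.7 ± 12.6 CPM, SD, n = 3). Over all tested genes 12.5% were higher and 11.5% lower at that p. Leaving out a library gave 0 to 2 of the 12 higher. The count was 0 without GFP replicate 2 or 3 or NeuroD1 replicate 1 or 2. The count of lower genes was 0 without GFP replicate 1 or 2. Relative to this mean Gpnmb was 2.11 ± 0.64 with GFP and 4.18 ± 1.06 with NeuroD1 on the log2 scale (SD, n = 3), a 4.19-fold higher ratio without overlap. Axl was also without overlap, at -0.34 ± 0.11 against -0.041 ± 0.062. Spp1, 5.20-fold higher in this ratio, overlapped between the groups, and so did the other 7 members. How many of all genes separate the groups in this ratio was not computed. In plain CPM, 14.2% of tested genes lay above and 15.3% below without overlap. The median over the 10 genes of this relative level was 0.26 higher with NeuroD1 on the log2 scale, less than its spread of 0.47 between replicates.

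Tyrobp is carried by microglia and other myeloid cells alike, and ratios to it were added after the values were seen. How many of all genes separate the groups in ratio to Tyrobp was not computed. In plain CPM, 14.2% of tested genes had every NeuroD1 library above every GFP library and 15.3% every one below. Counts of Gpnmb per count of Tyrobp were 1.90, 1.70 and 2.59 with GFP and 7.34, 13.5 and 5.32 with NeuroD1. Counts of Spp1 per count of Tyrobp were 2.08, 9.28 and 17.6 with GFP and 38.5, 47.1 and 22.4 with NeuroD1. Both ratios were higher in every NeuroD1 library than in any GFP library. Counts of Trem2 per count of Tyrobp, by contrast, were 0.781, 0.898 and 0.843 with GFP and 0.689, 0.767 and 0.729 with NeuroD1, lower in every NeuroD1 library and varying little. Cd68 (0.878 to 1.35 with GFP, 1.40 to 2.85 with NeuroD1) and Cd9 (0.793 to 1.09 against 1.11 to 1.42) were higher per Tyrobp count in every NeuroD1 library. Cst7 per count of Tyrobp was 0.155, 0.191 and 0.169 with GFP and 0.155, 0.0789 and 0.152 with NeuroD1. Axl per count of Tyrobp was 0.551, 0.263 and 0.355 with GFP and 0.454, 0.318 and 0.566 with NeuroD1. The groups thus overlapped for Axl in this ratio, and also for Cd63 (0.486 to 0.571 with GFP, 0.541 to 0.693 with NeuroD1). Apoe stayed between 28.2 and 43.7 counts per Tyrobp count in the 6 libraries, and the NeuroD1 values of 37.3 to 40.5 lay inside the GFP range.

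**Figure D4:**
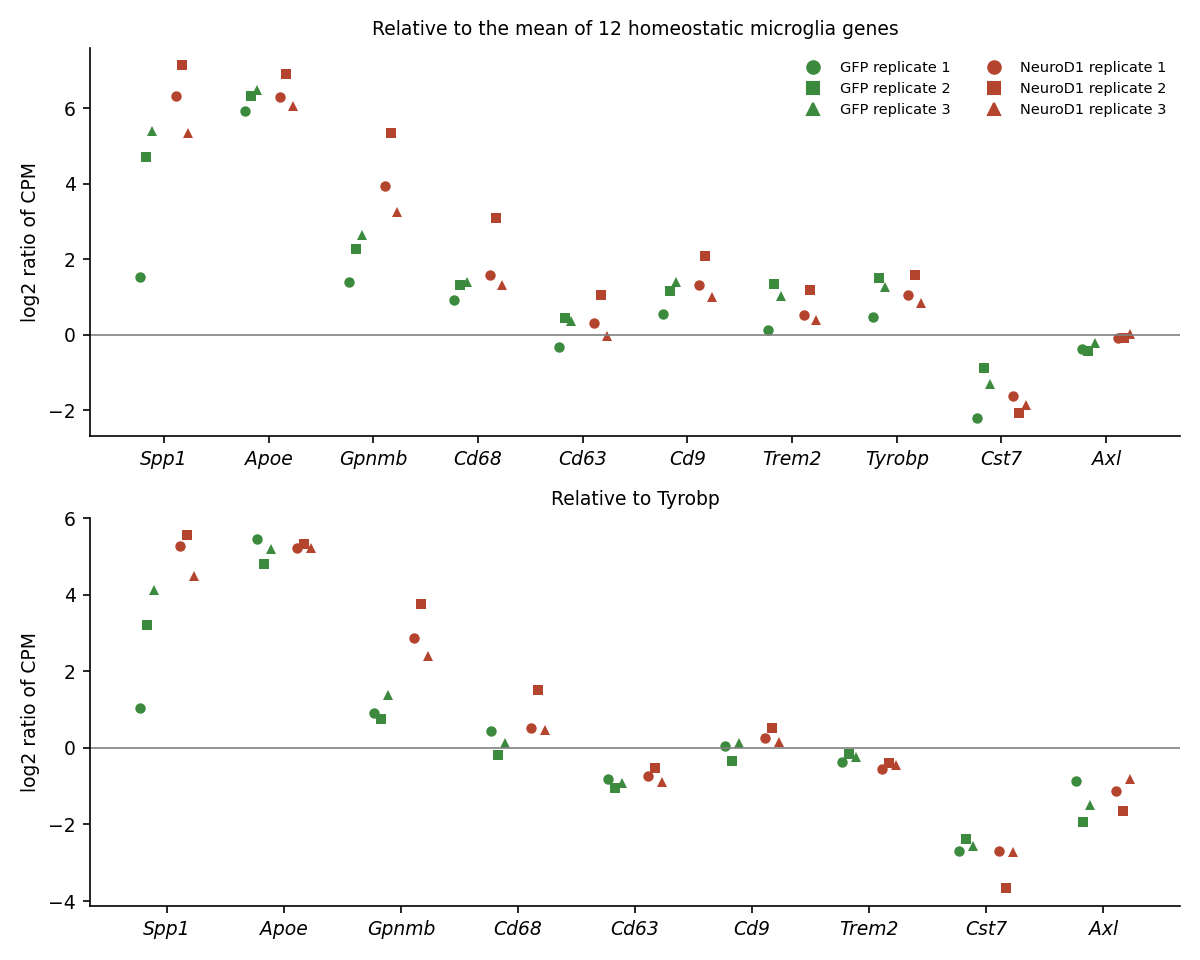
Log2 ratio of each gene's CPM to the mean of 12 homeostatic microglia genes (upper panel) and to Tyrobp (lower panel) in each library, green for GFP and red for NeuroD1, symbols by replicate. Gpnmb separates the groups in both panels (4.19-fold and 3.98-fold), while Trem2 shows overlap in the upper panel and slightly lower NeuroD1 values in the lower panel.

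The members did not vary as a single block. The distance between 2 genes was taken as the root mean square difference of their centred log2 CPM profiles over the 6 libraries, which share depth and treatment and so give a description only. Cd9 and Cd63 (0.123) and the receptor pair Trem2 and Tyrobp (0.126) were the closest pairs, and Spp1 and Cst7 (1.74) the farthest apart. Gpnmb and Spp1 lay 0.862 apart, and the nearest member to Gpnmb was Cd68 (0.689). Outside the 10 genes, those nearest to their median profile, among 12559 genes with a mean of at least 5 CPM, were Nrros (0.0551), Trpv2 (0.0572), Akr1b8 (0.0653), Tmem37 (0.0719) and Ezh2 (0.0791). Of the members, Cd9, Cd63 and Apoe lay near that profile, at ranks 6, 15 and 18 of the 12559. Gpnmb and Spp1 lay far from it, at ranks 11373 and 12493.

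Of 24 other genes of the disease-associated state, 22 had higher fitted levels, against 51.7% of tested genes. Their median log2 fold change was 0.76. At an unadjusted edgeR p under 0.05, 8 were higher and 0 lower, against 12.5% and 11.5% of tested genes. DESeq2 called 7 of the 24 higher, against 5.07% of its genes. Lpl, lipoprotein lipase, measured 110, 233 and 231 CPM with GFP and 563, 1730.05 and 285 CPM with NeuroD1 (4.49-fold, edgeR adjusted p = 0.140). Plin2, a coat protein of lipid droplets, was 3.70-fold higher (edgeR adjusted p = 0.138) and Timp2, a metalloproteinase inhibitor, 1.78-fold higher (adjusted p = 0.142), both without overlap. These genes were named for the smallest p in their list, so their lack of overlap follows in part from that choice. Of the 24 genes, 5 had every NeuroD1 library above every GFP library, against 14.2% of tested genes. The count of 8 was 4 without GFP replicate 1 (14.2% of all genes higher in that fit). It was 5 without NeuroD1 replicate 2 (12.2%) and 13 without NeuroD1 replicate 3 (15.3%).

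Among 12 genes of TREM2 signalling and shedding, 8 were higher and 0 lower at an unadjusted edgeR p under 0.05 (median log2 fold change 0.84). Over all tested genes 12.5% were higher and 11.5% lower at that p. DESeq2 called 3 of the 12 higher and 0 lower, against 5.07% and 3.93% of its genes. Plcg2, the phospholipase downstream of the receptor, was 2.13-fold higher (44.4, 50.4 and 44.2 CPM with GFP and 86.9, 148 and 61.3 CPM with NeuroD1; edgeR adjusted p = 0.140). The sheddases Adam10 and Adam17, which cut TREM2 and many other proteins from the cell surface, were both 2.07-fold higher (edgeR adjusted p = 0.136 and 0.138). These 3 genes were named for the smallest p in their list, so their lack of overlap follows in part from that choice. Of the 12 genes, 6 had every NeuroD1 library above every GFP library, against 14.2% of tested genes. Leaving out GFP replicate 1 (14.2% of all genes higher in that fit) or 3 (6.13%) brought the 8 higher genes down to 3. Among the partners of Axl, the related receptor Mertk was 1.48-fold higher, and the ligands Gas6 and Pros1 1.61-fold and 1.41-fold (edgeR adjusted p = 0.211, 0.266 and 0.260), all 3 overlapping, and 0 of 4 genes of this family had an unadjusted p under 0.05 (3 without NeuroD1 replicate 3).

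Of 8 receptor genes for osteopontin, 6 were higher at an unadjusted edgeR p under 0.05, against 12.5% of tested genes. DESeq2 called 5 higher, against 5.07% of its genes, and the median log2 fold change was 0.87. The integrin Itgav measured 105, 60.5 and 67.6 CPM with GFP and 272, 373 and 166 CPM with NeuroD1 (3.47-fold, edgeR adjusted p = 0.136). Itga4, an integrin of leukocytes that also counts among the markers of infiltrating cells, was 2.94-fold higher and Cd44 2.52-fold higher (edgeR adjusted p = 0.136 for both), with every NeuroD1 library above every GFP library. That separation follows in part from naming genes by the smallest p. It held for 6 of the 8 genes, against 14.2% of tested genes. Between 4 and 6 of the 8 were higher at an unadjusted edgeR p under 0.05 when a library was left out, where 6.13% to 15.3% of all genes were.

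Genes for apolipoprotein receptors and lipid efflux were divided. At an unadjusted edgeR p under 0.05, 4 of 11 were higher and 1 lower, with a median log2 fold change of 0.12. Over all tested genes 12.5% were higher and 11.5% lower at that p. DESeq2 called 3 of the 11 higher and 1 lower, against 5.07% and 3.93% of its genes. The cholesterol exporters Abca1 and Abcg1 were 2.88-fold and 1.93-fold higher, and Lrp1, an endocytic receptor for APOE, 2.06-fold higher (edgeR adjusted p = 0.140, 0.147 and 0.145), whereas Clu, an apolipoprotein gene of astrocytes named after its value was seen, was 1.70-fold lower (edgeR adjusted p = 0.185). Leaving out GFP replicate 2 (6.53% of all genes higher in that fit) or 3 (6.13%) brought the 4 down to 2. The count of lower genes was 0 when any GFP library or NeuroD1 replicate 1 was left out, and 2 when NeuroD1 replicate 2 was.

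Among the MiT/TFE factors and lysosomal genes, 8 of 12 were higher and 0 lower at an unadjusted edgeR p under 0.05 (median log2 fold change 0.94). Over all tested genes 12.5% were higher and 11.5% lower at that p. DESeq2 called 5 of the 12 higher, against 5.07% of its genes. Atp6v0d2, a proton pump subunit of osteoclasts and macrophages, had few counts, at 1.32, 8.01 and 8.91 CPM with GFP and 40.8, 80.9 and 12.2 CPM with NeuroD1 (7.38-fold, edgeR adjusted p = 0.138). Lipa, the lysosomal lipase, measured 109, 119 and 119.85 CPM with GFP and 269, 592 and 180.4 CPM with NeuroD1 (log2 fold change 1.58, edgeR adjusted p = 0.136). Lamp2, a lysosomal membrane protein, was 2.34-fold higher (edgeR adjusted p = 0.138). Leaving out GFP replicate 1 (14.2% of all genes higher in that fit) or 3 (6.13%) or NeuroD1 replicate 2 (12.2%) brought the 8 down to 5. All lists in these paragraphs were drawn up with earlier results of these data known, and none was tested as a set.

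**Figure D5:**
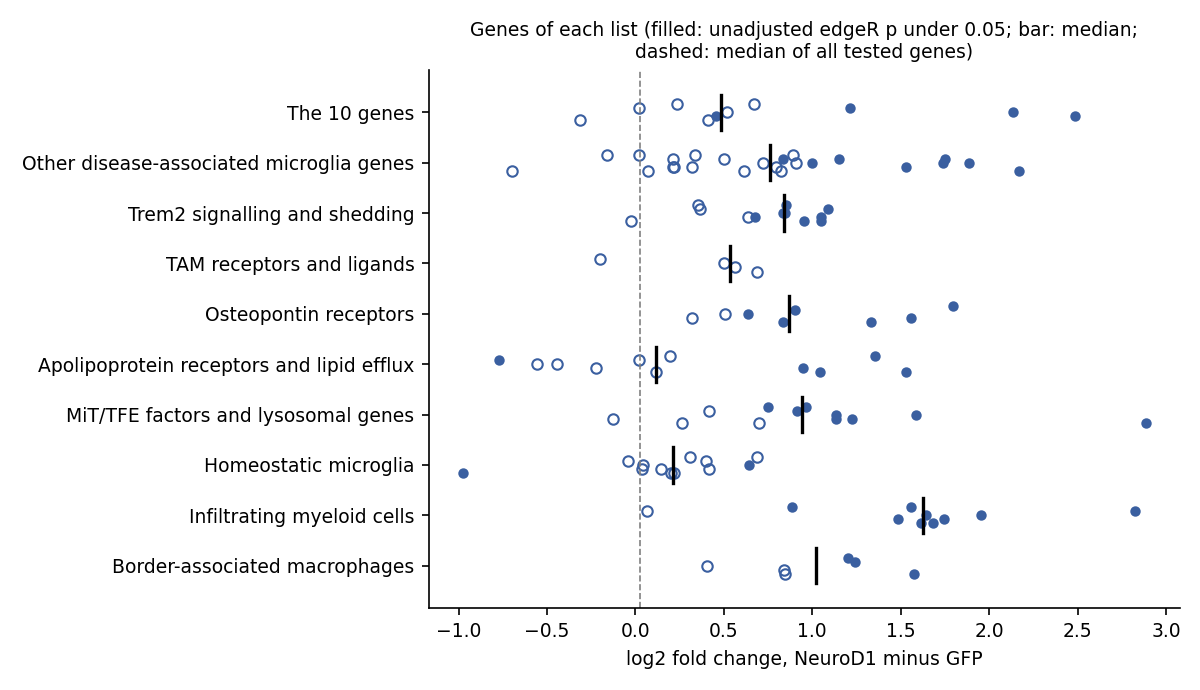
Log2 fold change of NeuroD1 over GFP for each tested gene (points) of the 10 genes, 6 related lists and 3 lists of microglia and macrophage markers, filled where the unadjusted edgeR p was under 0.05. Bars are list medians, from 0.12 for apolipoprotein receptors and lipid efflux to 1.63 for infiltrating myeloid cells, and the dashed line is the median of all tested genes, 0.024.

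Markers of other macrophages were also higher with NeuroD1. Over all tested genes 12.5% were higher at an unadjusted edgeR p under 0.05, and 6.13% to 15.3% with a library left out. Of 10 tested markers of infiltrating myeloid cells, 9 were higher at an unadjusted edgeR p under 0.05 (at least 7 with any library left out), and the summed level of all 11 was 885 to 2286 CPM with GFP and 2697 to 8244 CPM with NeuroD1. The macrophage lysozyme Lyz2 made up most of that sum (3.06-fold higher, edgeR adjusted p = 0.152). F13a1, a clotting factor subunit of macrophages, was 7.07-fold higher (edgeR adjusted p = 0.136). Of 6 markers of border-associated macrophages 3 were higher at that p (5 without NeuroD1 replicate 3, but 2 when NeuroD1 replicate 1 or 2 or GFP replicate 2 was left out), and their sum was 428 to 472 CPM with GFP and 701 to 2031 CPM with NeuroD1, mostly the scavenger receptor Stab1 (2.98-fold, edgeR adjusted p = 0.136). No marker of either list was at 0 in all libraries. The members' levels cannot be assigned to a cell type in these data, and the part of these cells in the differences was not tested.

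Markers of other cell types also differed between libraries. Over all tested genes 12.5% were higher and 11.5% lower at an unadjusted edgeR p under 0.05. The summed level of 8 neuronal markers was 5335, 2909.5 and 4071 CPM in GFP replicates 1, 2 and 3 and 4919.9, 1999 and 6037 CPM in the NeuroD1 replicates. GFP replicate 1, lowest of the 6 libraries for 9 members (all but Axl), had the highest neuronal sum of the GFP group, and NeuroD1 replicate 2, highest for 9 members (all but Cst7), had the lowest of all. All 6 fibroblast markers were higher at an unadjusted edgeR p under 0.05 (summed level 728 to 1496 CPM with GFP, 1376 to 5656 with NeuroD1), 6 of 7 endothelial markers lower (418 to 654 against 182 to 330.1 CPM), 2 of 7 astrocyte markers lower (9254 to 15399 against 5453 to 10077 CPM) and 3 of 7 oligodendrocyte markers lower (10878 to 20939 against 7070.4 to 9529 CPM). Neutrophil markers were sparse, with 2 of 5 tested and 0 past that p, and 2 of 5 tested T cell markers were higher (1 to 4 with a library left out). Leaving out a library gave 5 to 7 lower endothelial, 5 or 6 higher fibroblast and 1 or 2 lower astrocyte markers (1 without any library but NeuroD1 replicate 3), and 0 lower oligodendrocyte markers without GFP replicate 2 or NeuroD1 replicate 1. No marker of these lists was at 0 in all libraries, and their part in the members' differences was not tested.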

How the data were processed

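Raw counts per gene were deposited by the authors as a table of the 6 libraries. Per the file headers, featureCounts did the counting with mm10 annotation. The tools HISAT2 2.0.1 and DESeq2 1.16.1 are named in the submitters' processing notes. The strand setting of the counting is not given in the sources used here. Columns were matched to samples by name. Counts were scaled by TMM and tested with edgeR 4.0.16 (quasi-likelihood test, treatment as the term, R 4.3.3) on 14852 genes passing filterByExpr (minimum count 10, total 15), with Benjamini-Hochberg adjustment over all of them and a threshold of 0.05. DESeq2 1.42.0, limma-voom (limma 3.58.1), other scalings and filters, a replicate block and leaving out each library were alternatives. The procedure was tested on simulated data. Depth was 7753101 to 13440244 counts, so 1 count was worth 0.0753 to 0.134 CPM. RPKM used the union of each gene's annotated exons as its length. Exons and coordinates came from GENCODE M21 (GRCm38), with promoter windows from RefSeq. The members and lists were chosen with earlier results of these data known. Named genes are the 10 members, Neurod1, the 3 genes with the smallest edgeR p in each related list, genes among the 2 most abundant or with the smallest p in a marker list, and the 5 nearest to the median member profile; others are marked. Single values of 1 gene in the resting microglia list are not reported here.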

Additional observations from a re-analysis of the deposited data

How the results depend on the processing

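Of 190 alternative estimates of the 10 fold changes, 180 kept their direction. With DESeq2, 1374 genes and 2 members passed the adjusted threshold, and the log2 fold change of Neurod1 was 2.71. With the replicate block the values were 479 genes, 2 members higher at an unadjusted p under 0.05 (17.8% of genes), and 2.58. Whether replicate numbers pair the samples is not stated. Deviations of same-numbered libraries correlated at 0.539, 0.371 and 0.039, and those of differently numbered libraries at -0.467 to 0.129. Pairing for part of the replicates therefore cannot be decided here. At a threshold of 0.2 edgeR called 4 members, all higher, where 11.9% of genes were, and at 0.1 it called 0. Upper quartile scaling left 1 member at an unadjusted p under 0.05 (9.94% of genes higher) and gave Trem2 a log2 fold change of -0.077. Leaving out each library gave 0 to 1 genes called by edgeR, 1 to 6 members at an unadjusted p under 0.05, and log2 fold changes of 2.33 to 3.04 for Neurod1, -0.33 to 0.34 for Trem2, -0.055 to 0.49 for Tyrobp and -0.60 to 0.047 for Cst7. The same with DESeq2, added after the data were seen, gave 1 to 4 members called and 2 to 7 at an unadjusted p under 0.05. In the order GFP replicates 1, 2, 3 and NeuroD1 replicates 1, 2, 3 left out, DESeq2 called 2046, 162, 224, 256, 1003 and 2380 genes and gave Neurod1 2.88, 2.53, 2.73, 2.35, 3.06 and 2.61. DESeq2 gave Trem2 -0.23 without GFP replicate 1, Cst7 0.060 without GFP replicate 2, and Trem2 -0.31 and Tyrobp -0.037 without NeuroD1 replicate 2. The cause was not tested. With 3 samples a group, the wide spread of Gpnmb and Spp1 limits the precision more than depth does.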
